A study of Mus musculus with 20 samples.

Results

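The genes described here encode the voltage-gated sodium channels and the voltage-gated calcium channels of mouse, with their auxiliary subunits. They were chosen by name, as the protein-coding genes of the deposited count table whose symbols are those of the sodium channel alpha subunits (Scn followed by a number and a), the sodium channel beta subunits (Scn followed by a number and b) or the calcium channel alpha1, alpha2-delta, beta and gamma subunits (symbols starting with Cacna, Cacnb or Cacng). This gave 40 genes of the 54532 in the table, of which 22046 are protein-coding. Of these 40, 37 had enough reads to be tested. Scn4a, Scn11a and Cacng1 were too low.

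A voltage-gated sodium channel is a single large alpha protein that forms the pore, joined by small beta proteins that alter its gating and anchor it at the membrane. Sodium channels carry the upstroke of the action potential and are concentrated at the axon initial segment and the nodes of Ranvier. A high-voltage-activated calcium channel has an alpha1 pore, a cytoplasmic beta subunit and an extracellular alpha2-delta subunit, both of which help to bring the pore to the cell surface, whereas T-type channels work with the pore alone. Several of the proteins named as gamma subunits act chiefly as auxiliary subunits of AMPA-type glutamate receptors, so the gamma names cover a partly different function.

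RNA was measured by sequencing of polyadenylated transcripts from a single brain hemisphere per library, in 4 genotypes with 5 libraries each and 20 in all. The brains were wild type (WT), lacked Glb1 (Glb1KO), lacked Neu3 (Neu3KO) or lacked both genes (DKO), each as a labelled knockout. Glb1 encodes the lysosomal beta-galactosidase that is missing in GM1 gangliosidosis, a neuronal storage disease, and Neu3 encodes a sialidase that acts on gangliosides, so the series asks how loss of the sialidase alters the brain that lacks the galactosidase. The labels named no strain, age, sex or kind of knockout allele, and they did not say that libraries came from separate animals, so p-values measure the spread between these libraries.

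Total counts ran from 15162311 to 25145806 per library. Glb1 RNA was lower where the labels give its knockout. It averaged 20.2 ± 1.32 CPM (counts scaled to library size; SD, n = 5) in WT, 3.38 ± 0.903 in Glb1KO and 4.0 ± 1.07 in DKO (exact two-sided permutation p = 0.00794 for each, the smallest that 252 arrangements allow). Neu3 was low throughout and averaged 3.85 ± 1.22 CPM in WT, 2.86 ± 0.409 in Neu3KO (exact permutation p = 0.151) and 2.98 ± 0.826 in DKO (exact permutation p = 0.23), differences within the spread between libraries, so its RNA does not check the Neu3 label. Library identifiers began with E, L or W, letters that the labels do not explain. All 5 WT libraries, 2 Glb1KO, 1 Neu3KO and 2 DKO libraries carried E, 3 Glb1KO libraries carried L, and 4 Neu3KO and 3 DKO libraries carried W. In these genes replicate 1 of WT was most often the highest WT library: it held the highest WT value for 21 of the 37 tested genes, against 7 for replicate 2, the next most often highest. The same count was not made over all tested genes, so this is not shown to be particular to the channel genes.

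Promoter sequences are shown for 4 of the genes that the results turn on: Scn2b, Cacng2 and Cacna2d1, which were lower in DKO than in each other genotype, and Scn10a, the only gene of the 37 tested that was called higher in DKO than in WT. The sequences come from RefSeq on GRCm38.p6, as windows of 300 bases from 250 before the transcript start to 50 after it, written 5′ to 3′ on the gene's strand. Of the 40 genes, 30 matched an entry. Capitals mark matches on either strand to any of the motifs searched. These were the GC box that Sp1-family factors bind (GGGCGG), which may overlap a neighbouring match, and the TATA element of core promoters (TATAAA). The core of the cAMP response element, bound by the factor CREB, was searched as TGACG. Both arms of the RE1 element, which the neuronal repressor REST binds, were searched, the left as TTCAGCACC. The right arm was searched apart from it, with the shorter letters GGACAGC. The positions are chr9:45117626-45117925 on the plus strand for Scn2b, chr15:78119231-78119530 on the minus strand for Cacng2, chr5:15934441-15934740 on the plus strand for Cacna2d1 and chr9:119718983-119719282 on the minus strand for Scn10a.
Scn2b: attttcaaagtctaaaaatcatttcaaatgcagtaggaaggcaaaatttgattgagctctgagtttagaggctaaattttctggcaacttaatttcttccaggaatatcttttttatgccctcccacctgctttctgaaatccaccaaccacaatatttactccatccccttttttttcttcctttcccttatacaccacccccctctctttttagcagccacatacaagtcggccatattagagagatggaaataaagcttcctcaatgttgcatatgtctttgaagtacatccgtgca
Cacng2: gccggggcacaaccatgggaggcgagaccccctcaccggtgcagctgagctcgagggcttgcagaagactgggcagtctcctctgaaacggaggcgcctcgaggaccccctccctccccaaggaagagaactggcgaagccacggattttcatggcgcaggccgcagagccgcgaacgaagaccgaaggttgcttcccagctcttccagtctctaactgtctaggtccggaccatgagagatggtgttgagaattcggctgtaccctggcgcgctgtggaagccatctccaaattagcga
Cacna2d1: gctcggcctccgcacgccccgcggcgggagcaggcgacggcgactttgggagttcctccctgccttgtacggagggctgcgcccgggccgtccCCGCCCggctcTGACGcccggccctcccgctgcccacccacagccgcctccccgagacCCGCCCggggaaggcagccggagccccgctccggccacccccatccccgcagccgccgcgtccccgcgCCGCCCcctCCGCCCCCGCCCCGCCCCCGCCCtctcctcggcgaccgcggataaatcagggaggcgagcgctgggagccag
Scn10a: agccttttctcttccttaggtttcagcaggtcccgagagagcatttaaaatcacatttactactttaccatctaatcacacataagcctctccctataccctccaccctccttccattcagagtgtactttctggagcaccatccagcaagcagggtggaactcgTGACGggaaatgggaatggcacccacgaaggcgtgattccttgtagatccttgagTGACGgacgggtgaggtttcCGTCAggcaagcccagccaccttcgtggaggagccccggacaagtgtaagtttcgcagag

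The Scn2b window is poor in CpG, with 2 CpG and 38.3% G or C, while the Cacng2 window holds 20 CpG and the Cacna2d1 window 42 CpG with 7 GC boxes and 80.0% G or C. The Scn10a window holds 11 CpG and 3 TGACG matches. Base composition thus differed widely between promoters of genes that were lower together. Among the 18 matched genes that were lower in DKO than in WT, with the first listed window of each, the median window held 21.5 CpG, against 10 over the 30 matched channel genes counted likewise and 7.0 over all 32851 windows, in which a gene can have several. The 30 genes had 41 windows. A GC box lay in 16 of the 41, beside 35.7% of all windows, TGACG in 6, beside 20.8%, and TATAAA in 2, beside 13.6%. The right RE1 arm lay in 2 of the 41, beside 6.56%, and the left arm in 0, beside 0.371%. These matches describe letters only.

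In WT brain the order of the levels was read per transcript length, as FPKM, counts scaled to transcript length and library size. Scn2a and Scn8a were the highest sodium channel pores, at 32.9 ± 1.76 and 30.4 ± 2.95 FPKM (SD, n = 5), and their libraries overlapped. Scn1a followed at 24.0 ± 1.10 FPKM and Scn3a, the pore known from the developing brain, at 5.40 ± 0.226. Scn9a, a channel of sensory neurons, and Scn7a, an atypical channel of glia and sensing neurons, overlapped at 0.980 and 0.897 FPKM.

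Of the sodium beta genes, Scn2b averaged 68.2 ± 2.17 FPKM, Scn4b 60 ± 3.76 and Scn3b 20.04 ± 1.24, with no overlap between neighbours in WT. Of the calcium pores, Cacna1a (the P/Q-type channel of presynaptic terminals and Purkinje cells) was highest at 28.5 ± 3.15 FPKM. Cacna1g (T-type), Cacna1e (R-type), Cacna1b (N-type) and Cacna1i (T-type) lay between 19.4 and 16.4 FPKM, each overlapping the next. Cacna1h, Cacna1c and Cacna1d, the latter pair being the L-type channels of brain, lay between 9.26 and 6.36 FPKM, again with overlap.

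Cacna1f and Cacna1s, the L-type channels of retina and skeletal muscle, were at 0.151 and 0.150 FPKM, although each passed the filter. Among the auxiliary genes, Cacna2d1 led the alpha2-delta set at 18.0 ± 0.513 FPKM, Cacnb3 the beta set at 39.2 ± 1.2, and Cacng7 the gamma set at 73.2 ± 1.70. Cacna2d4, at 0.360 FPKM, lay far below the other alpha2-delta genes, and Cacnb2, at 4.12, far below the other beta genes. Cacng6 overlapped the untested Cacng1 at 0.317 and 0.227 FPKM.

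**Figure D1:**
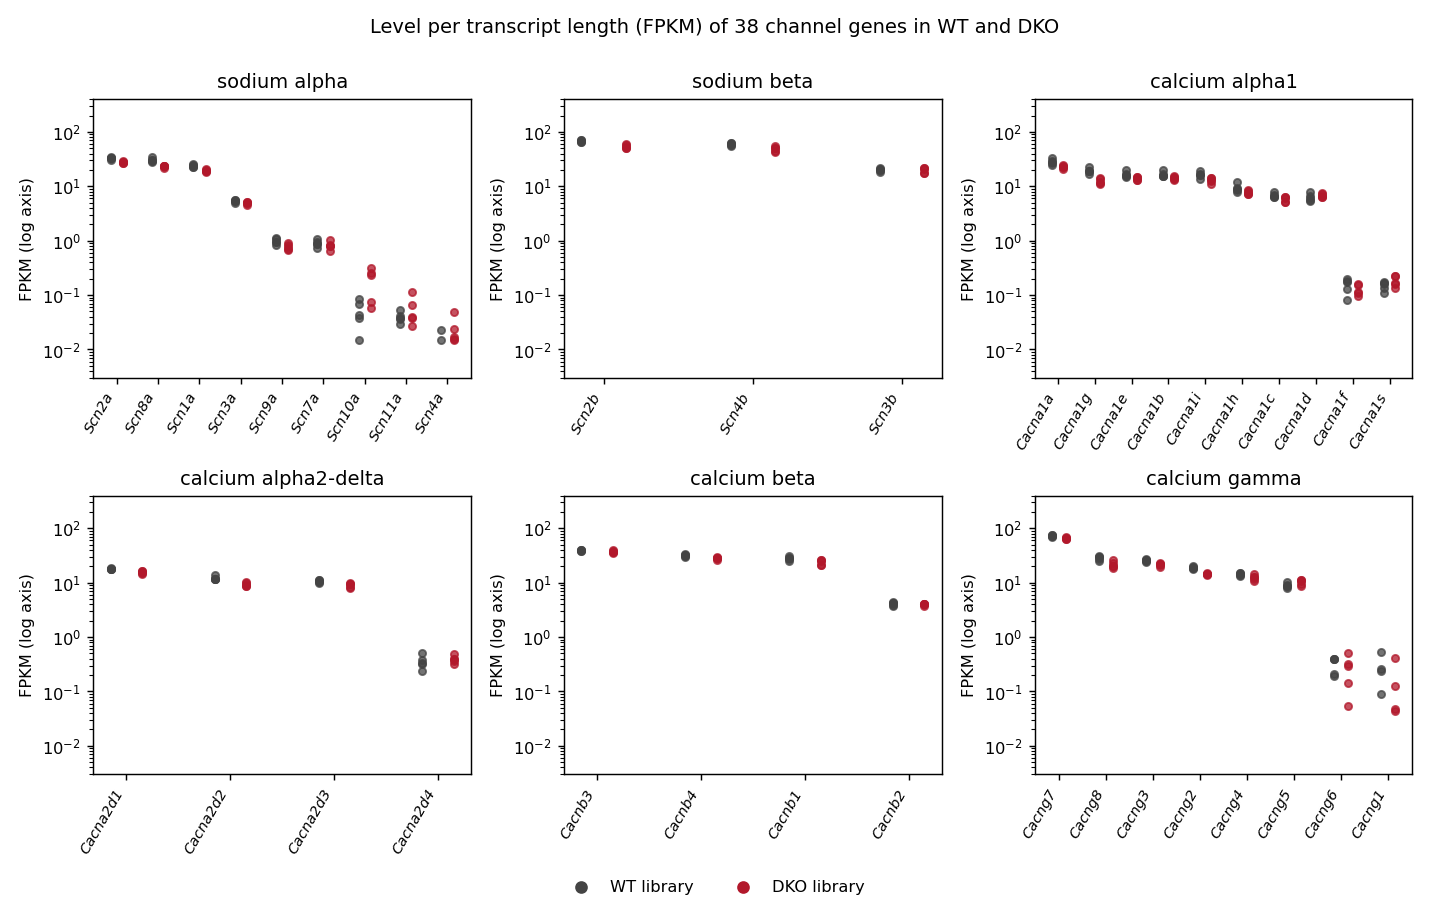
FPKM on a log axis for 38 channel genes in the 5 WT (dark grey) and 5 DKO (red) libraries, by subunit group and in the order of the WT mean. Points at 0 are left out. The sodium alpha, alpha1, alpha2-delta and gamma genes span from above 10 FPKM to under 1, while the sodium beta genes shown all lie above 10 FPKM and the lowest calcium beta gene, Cacnb2, averages 4.12 in WT.

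The 3 untested genes are known from muscle or sensory neurons. Scn4a, the skeletal muscle pore, had 33 reads over all 20 libraries and between 0 and 6 in a library. Scn11a, a pore of pain-sensing neurons, had 127 reads, of which 29 were in Neu3KO replicate 1 and 13 in DKO replicate 5. Cacng1, the gamma subunit of the skeletal muscle channel, had 68 reads and at most 13, in WT replicate 1. No change in these 3 could be tested at this depth. Cacna1f (400 reads in all), Cacna1s (354), Scn10a (270) and Cacng6 (228) passed the filter on low numbers, and their intervals are wide: the 95% interval of the DKO-to-WT log2 change of Cacng6 ran from -1.10 to 0.58.

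DKO brain held less RNA of most of the abundant channel genes than WT brain did. Of the 37 tested genes, 21 were lower and 1 higher (edgeR's quasi-likelihood test, Benjamini-Hochberg adjusted p under 0.05 over all 18336 tested genes), where 29% of all tested genes passed in either direction, 15.1% as lower and 14% as higher. Among all genes with a mean of at least 10 CPM, 22.3% were lower. At an unadjusted p under 0.05 there were 25 of the 37, where 38.6% of all tested genes were. The median log2 change of the 37 was -0.25, against -0.003 over all tested genes and -0.04 over those of at least 10 CPM. In 13 of the 37, every DKO library lay below every WT library, where 9.35% of all tested genes did so, and in 0 every DKO library lay above, where 9.28% did so. In bulk tissue, fewer cells of a type and less RNA per cell cannot be told apart.

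**Figure D2:**
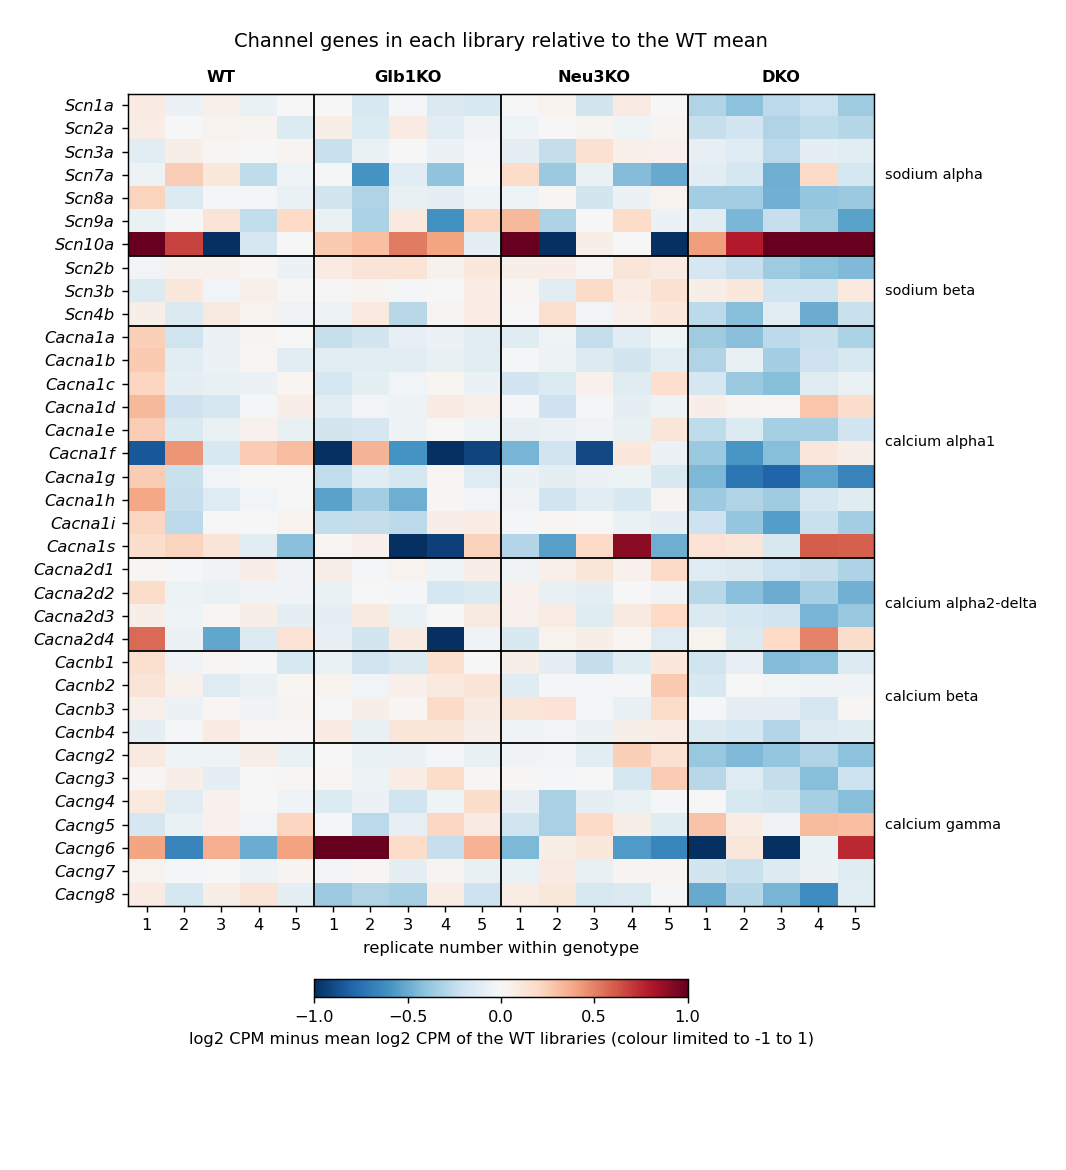
Each row is 1 of 35 tested channel genes and each column a library. Colour gives log2 CPM minus the mean log2 CPM of the WT libraries, blue for lower and red for higher, limited to -1 to 1. The DKO columns are blue for most sodium alpha, alpha1, alpha2-delta and gamma genes, the single knockouts are mostly pale, and the rows with strong single cells are genes of few reads (Scn10a, Cacna1f, Cacna1s, Cacna2d4, Cacng6).

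Among the sodium channel pores, the 3 abundant adult brain genes were lower in DKO: Scn1a, Scn2a and Scn8a, of 8 tested. Scn8a, the pore that gathers at mature nodes and initial segments, fell furthest. Its CPM in the 5 WT libraries was 563, 439, 479.8, 479.6 and 459.6 and in the 5 DKO libraries 380.2, 379.9, 346, 369 and 372. It was 426, 392, 457, 454 and 468 in Glb1KO and 468, 486, 424, 463 and 494 in Neu3KO. All DKO libraries lay below all others. The DKO-to-WT log2 change was -0.39 (SE 0.06, edgeR adjusted p = 2.47e-06), 23.7% lower, and without WT replicate 1, the highest WT library, it was -0.32 (adjusted p = 9.84e-06).

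Scn1a, the pore on which many inhibitory neurons depend, read 286, 259, 279, 257 and 268 CPM in WT and 218, 203, 225, 232 and 211 in DKO. It read 270.4, 242, 265, 244 and 242 in Glb1KO and 269.8, 277, 237, 285 and 270.3 in Neu3KO. Every DKO library was below the lowest of the other 15, and Scn1a fell by 0.31 on the log2 scale against WT (SE 0.05, edgeR adjusted p = 2.5e-05). Scn2a, the pore of excitatory neurons' initial segments and of unmyelinated axons, read 444, 423, 433, 429.9 and 385 CPM in WT and 360.3, 369.9, 343, 355 and 347 in DKO. It read 441, 384, 448, 391 and 412 in Glb1KO and 410.5, 421, 431, 410.1 and 430.5 in Neu3KO. Again no DKO library reached the lowest of the other genotypes, and the log2 change against WT was -0.25 (SE 0.05, edgeR adjusted p = 0.000127).

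Scn3a, Scn7a and Scn9a gave no call in DKO against WT. The log2 change was -0.14 for Scn3a (edgeR adjusted p = 0.112), -0.15 for Scn7a (0.523) and -0.34 for Scn9a (0.0536). Scn9a passed against Neu3KO, at -0.37 (edgeR adjusted p = 0.0341), a call lost without Neu3KO replicate 1 (-0.29, adjusted p = 0.142) and without any of 4 other libraries. Scn9a held 4227 reads in all and overlaps an antisense gene, Gm13629, with 1843. The strand setting of the counting was not given in the sources used here, so reads of the pair cannot be told apart.

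Scn10a, a pore of peripheral pain-sensing neurons, was near the limit of detection. It had 13, 10, 2, 5 and 6 reads in the WT libraries and 7, 7, 10, 7 and 5 in Glb1KO. It had 48, 2, 6, 5 and 2 reads in Neu3KO and 8, 10, 35, 35 and 47 in DKO. DKO replicates 3, 4 and 5 (1.92, 2.01 and 2.50 CPM), all with identifiers in W, and Neu3KO replicate 1 (1.92 CPM), with E, were high, while the remaining 16 libraries lay at 0.685 CPM or less.

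Over all libraries the DKO-to-WT log2 change of Scn10a was 1.88 (SE 0.59, edgeR adjusted p = 0.0185). Within libraries whose identifiers begin with E it was 0.38 (adjusted p = 0.788), with the letter as a term 2.17 (0.0636), and without DKO replicate 5 it was 1.61 (0.056). Of 5 tested markers of peripheral sensory neurons, 0 passed in DKO against WT, where 29% of all tested genes passed. The summed CPM of the listed sensory markers was 11.7, 9.49 and 9.29 in the 3 high DKO libraries against 11.9 to 17.2 in WT. In Neu3KO replicate 1 that sum was 21.0, the highest of the 20 libraries, and Scn11a was highest there too. The source of the Scn10a reads was not tested.

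Of the sodium channel beta genes, Scn2b and Scn4b, whose proteins bond covalently to the pore, were lower in DKO, and Scn3b, whose protein does not, gave no call. Scn2b read 314, 329.7, 329, 322 and 307 CPM in WT and 286, 273, 251, 241 and 236 in DKO. It read 339, 350.4, 352, 329 and 345 in Glb1KO and 333, 335.8, 323, 348 and 339 in Neu3KO. The DKO libraries were the lowest 5 of the 20, and the log2 change was -0.32 against WT (SE 0.05, edgeR adjusted p = 5.09e-06), -0.41 against Glb1KO (adjusted p = 7.16e-08) and -0.38 against Neu3KO (adjusted p = 1.7e-07).

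Scn4b, rich in Purkinje cells and striatum, read 314, 272, 319.8, 308 and 294 CPM in WT and 251, 225, 278, 214 and 258 in DKO. It read 292, 322, 248, 307 and 316 in Glb1KO and 300.2, 336.2, 295, 312 and 324 in Neu3KO. DKO replicate 3 overlapped the lowest WT library, and the log2 change against WT was -0.30 (SE 0.07, edgeR adjusted p = 0.000921). The log2 change of Scn3b in DKO against WT was -0.02 (edgeR adjusted p = 0.838), with a 95% interval from -0.15 to 0.10.

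**Figure D3:**
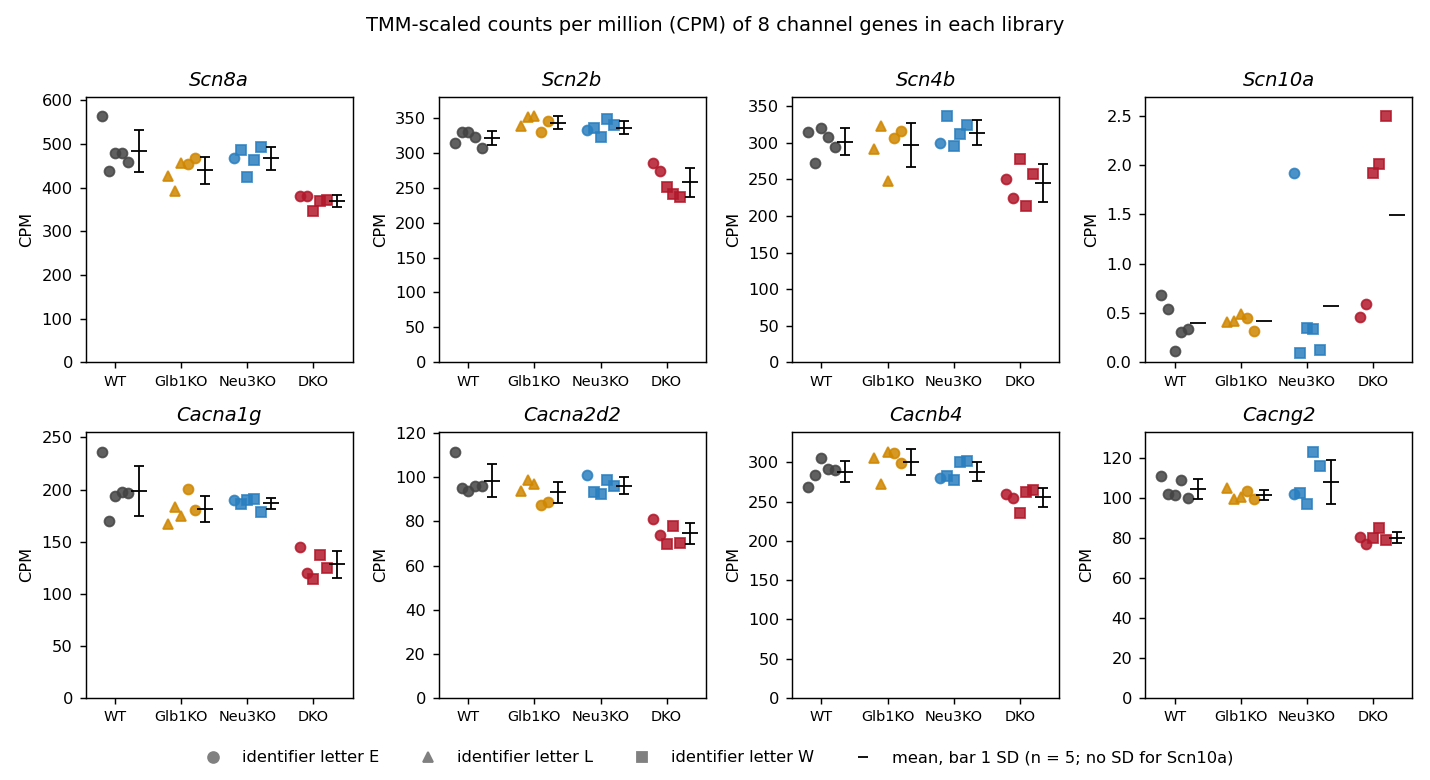
CPM in each library for 8 channel genes, by genotype, with a marker shape for the first letter of the library identifier and the mean with 1 SD at the right of each group (no SD for Scn10a). DKO lies below every other library in Scn8a, Scn2b, Cacna1g, Cacna2d2, Cacnb4 and Cacng2, overlaps WT in Scn4b through replicate 3, and in Scn10a splits into 2 libraries with E at the WT level and 3 with W above it.

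Of the 10 calcium channel pores, 6 were lower in DKO than in WT and none higher. Cacna1g, the T-type pore of Purkinje cells and thalamic relay neurons, showed the largest fall of the 37 genes. It lies at chr11:94408391-94474198 on the minus strand in the deposited table's coordinates (mm10). It read 236, 169, 194, 198 and 197 CPM in WT and 145, 120.1, 114, 137 and 125 in DKO. It read 167, 183, 175, 200.2 and 181 in Glb1KO and 189.6, 186, 189.5, 191 and 178 in Neu3KO. No DKO library reached the lowest of the other 15. The log2 change was -0.63 against WT (SE 0.07, edgeR adjusted p = 8.02e-09), 35.6% lower, -0.50 against Glb1KO (adjusted p = 1.71e-06) and -0.55 against Neu3KO (adjusted p = 1.84e-07). Without WT replicate 1, which was the highest, the change against WT was -0.56 (adjusted p = 9.94e-09).

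Cacna1a read 385, 285, 313, 333 and 326 CPM in WT and 255, 244, 272, 280.4 and 262 in DKO. It read 278, 288, 309, 314 and 303 in Glb1KO and 301, 318, 277, 303 and 317 in Neu3KO. DKO lay wholly below WT but overlapped both single knockouts, through replicate 4. The log2 change against WT was -0.32 (SE 0.06, edgeR adjusted p = 7.6e-05), and -0.25 without WT replicate 1 (adjusted p = 0.000511). Against Glb1KO it was -0.18 (adjusted p = 0.0307), a call that was lost when any of 6 single libraries was left out, for example DKO replicate 2 (-0.15, adjusted p = 0.104), and also under scaling by library totals (-0.15, adjusted p = 0.085).

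The other lower pores were Cacna1i (-0.34, edgeR adjusted p = 0.00144), Cacna1e (-0.25, 0.0014), Cacna1c (-0.23, 0.0156) and Cacna1b (-0.22, 0.0052), each as a log2 change against WT. The call for Cacna1c was lost without WT replicate 1 (-0.16, adjusted p = 0.08), DKO replicate 2 (-0.19, 0.0579) or DKO replicate 3 (-0.17, 0.0837). Cacna1d, the L-type pore that opens at more negative voltages, did not join the fall, with a log2 change of 0.10 (95% interval -0.04 to 0.25, adjusted p = 0.322). Cacna1h was at -0.28 (0.0685), Cacna1f at -0.28 (0.565) and Cacna1s at 0.27 (0.589). Cacna1c and Cacna1d overlap Dcp1b and Dcp1a on the opposite strand, which had 6983 and 10620 reads beside 48862 and 28867.

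The makeup of the calcium pores per length shifted with these changes, given here as a description without a test. Cacna1g made up 16.2% ± 0.269 (SD, n = 5) of the summed alpha1 FPKM in WT and 12.9% ± 0.980 in DKO. Cacna1d made up 5.28% ± 0.289 in WT and 7.04% ± 0.322 in DKO. The WT and DKO ranges did not overlap for either gene. In Glb1KO the Cacna1d share ran from 5.603% to 5.785%, just above the WT range of 4.88% to 5.598%, and in Neu3KO it averaged 5.28%. The Cacna1g share averaged 16.05% in Glb1KO and 16.06% in Neu3KO. The summed alpha1 FPKM was 120 ± 13.8 in WT and 97.3 ± 4.25 in DKO, and the summed sodium alpha FPKM 95.9 ± 4.84 and 78.3 ± 1.85, with Scn2a at 34.3% of the sodium sum in WT and 35.4% in DKO.

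The alpha2-delta genes Cacna2d1, Cacna2d2 and Cacna2d3 were all lower in DKO, and Cacna2d4, the low retinal member, was not called (log2 change 0.12, edgeR adjusted p = 0.7). Cacna2d2, a Purkinje-rich subunit, read 112, 95.1, 93.8, 96.1 and 96.0 CPM in WT and 80.9, 73.8, 69.7, 78.0 and 70.3 in DKO. It read 94.0, 98.6, 96.9, 87.7 and 88.9 in Glb1KO and 101, 93.3, 92.2, 98.7 and 96.0 in Neu3KO. The DKO libraries lay below all others, with a log2 change of -0.40 against WT (SE 0.06, edgeR adjusted p = 1.35e-06) and -0.35 without WT replicate 1 (adjusted p = 7.45e-06).

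Cacna2d1, the target of gabapentin and a subunit of excitatory neurons, read 228, 224, 221, 237 and 221 CPM in WT and 207, 204, 195, 192 and 183 in DKO. It read 235, 222, 231, 219.9 and 237 in Glb1KO and 221, 234, 246, 233 and 258 in Neu3KO. The groups were apart again, although the fall was smaller, at -0.20 (SE 0.05, edgeR adjusted p = 0.00142). Cacna2d3 read 98.7, 92.2, 96.3, 98.9 and 88.8 CPM in WT and 85.7, 83.9, 82.8, 68.9 and 73.2 in DKO. It read 88.8, 101, 90.9, 95.2 and 101 in Glb1KO and 97.7, 100, 87.1, 101 and 109 in Neu3KO. DKO replicates 4 and 5 were lowest, replicate 1 came within a few CPM of the lowest other library, and the log2 change was -0.27 (SE 0.06, edgeR adjusted p = 0.00143). Cacna2d4 overlaps Lrtm2, and those reads cannot be told apart either.

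Of the 4 calcium channel beta genes, 2 were lower in DKO than in WT. Cacnb4, a beta subunit rich in cerebellum, read 269, 284, 305, 292 and 291 CPM in WT and 260.0, 255, 235, 262 and 264 in DKO. It read 305, 273, 314, 312 and 299 in Glb1KO and 279.8, 282, 277, 300 and 302 in Neu3KO. DKO was below every other library by a small margin, and the log2 change against WT was -0.17 (SE 0.05, edgeR adjusted p = 0.00656). Cacnb1 was lower at -0.25 (adjusted p = 0.0142), a call lost without WT replicate 1 (-0.20, 0.0603) or DKO replicate 3 (-0.19, 0.0664).

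Cacnb3, the most abundant beta gene per length, read 164, 152, 161, 155 and 161 CPM in WT and 157, 148, 149, 142 and 160.1 in DKO. It read 158, 165, 161, 181 and 169 in Glb1KO and 172, 174, 157, 151 and 180.5 in Neu3KO. The genotypes overlapped, with a DKO-to-WT log2 change of -0.07 (95% interval -0.17 to 0.03, edgeR adjusted p = 0.343). Its call against Neu3KO (-0.14, adjusted p = 0.0405) was lost when any of 11 single libraries was left out, among them Neu3KO replicate 5 (-0.12, adjusted p = 0.14). Cacnb2, the cardiac beta subunit, was at -0.05 (0.601).

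Of the 7 tested gamma genes, 5 were lower in DKO than in WT. Cacng2 encodes stargazin, which carries AMPA receptors to the synapse. It overlaps an antisense gene, A730060N03Rik, which had 1200 reads beside 35035, and reads of the pair cannot be told apart. Cacng2 read 111, 102, 102, 109 and 100 CPM in WT and 80.3, 77.0, 80.1, 84.9 and 78.8 in DKO. It read 105, 99.7, 100.4, 103 and 99.3 in Glb1KO and 102, 103, 97.0, 123 and 116 in Neu3KO. The gap between DKO and all other libraries was wider than the spread within DKO, and the log2 change was -0.39 against WT (SE 0.06, edgeR adjusted p = 3.08e-06), -0.34 against Glb1KO (adjusted p = 4.51e-05) and -0.43 against Neu3KO (adjusted p = 4.51e-07).

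Cacng3, a related AMPA receptor partner, read 72.3, 75.2, 67.7, 72.0 and 72.3 CPM in WT and 59.3, 65.7, 60.9, 53.6 and 61.9 in DKO. It read 73.0, 69.3, 75.5, 81.8 and 72.6 in Glb1KO and 72.6, 71.2, 71.9, 63.7 and 85.9 in Neu3KO. DKO lay below WT and Glb1KO and overlapped Neu3KO, and the log2 change against WT was -0.25 (SE 0.07, edgeR adjusted p = 0.00324). Cacng7, the most abundant gamma gene per length, read 184, 178, 181, 174 and 184 CPM in WT and 158, 155, 164, 173 and 166 in DKO. It read 176, 182, 169.8, 183 and 171 in Glb1KO and 172, 191, 171, 184 and 183 in Neu3KO. DKO replicate 4 nearly reached the lowest WT library, and the log2 change of -0.14 (SE 0.05, edgeR adjusted p = 0.0195) lost its call when any of 4 single libraries was left out, to -0.12 without DKO replicate 2 (adjusted p = 0.0706), and under scaling by library totals (-0.10, adjusted p = 0.125).

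Cacng8, an AMPA receptor partner rich in hippocampus, was lower at -0.39 (SE 0.09, edgeR adjusted p = 0.00131), and Cacng4 at -0.21 (0.0327). The Cacng4 call was lost when any of 6 single libraries was left out, for example DKO replicate 5 (-0.16, adjusted p = 0.119). Cacng5 was the only gamma gene with a higher call, at 0.27 against Neu3KO (adjusted p = 0.035). Its DKO libraries held 42.1, 36.3, 33.6, 42.9 and 42.5 CPM and its Neu3KO libraries 30.0, 27.5, 39.3, 35.8 and 31.7, which overlap. Its call was lost when any of 6 single libraries was left out, for example Neu3KO replicate 2 (0.21, adjusted p = 0.11), and against WT it was at 0.19 (adjusted p = 0.134).

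Neither knockout alone gave a channel gene that passed. In Glb1KO against WT, 0 of 37 genes passed with edgeR and 0 with DESeq2, where 3.96% of all tested genes passed with edgeR (2.21% lower, 1.75% higher, and 3.29% lower among genes of at least 10 CPM). An unadjusted p under 0.05 was found for 5, where 16.2% of all tested genes had one. Among them were Scn8a (log2 change -0.14, edgeR adjusted p = 0.197), Cacna1a (-0.14, 0.224), Cacna1h (-0.28, 0.201) and Cacng8 (-0.23, 0.179). For 0 of the 37 did all Glb1KO libraries lie below all WT libraries, where 2.96% of all tested genes did so. In Neu3KO against WT, 0 of 37 passed with edgeR and 0 with DESeq2, 0 of all 18336 genes passed (0%), and 0 of the 37 had an unadjusted p under 0.05, where 6.03% of all tested genes had one. The smallest adjusted p of the 37 was 0.837. No channel gene had all Neu3KO libraries below or above all WT libraries, where 0.66% and 0.524% of all tested genes did.

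**Figure D4:**
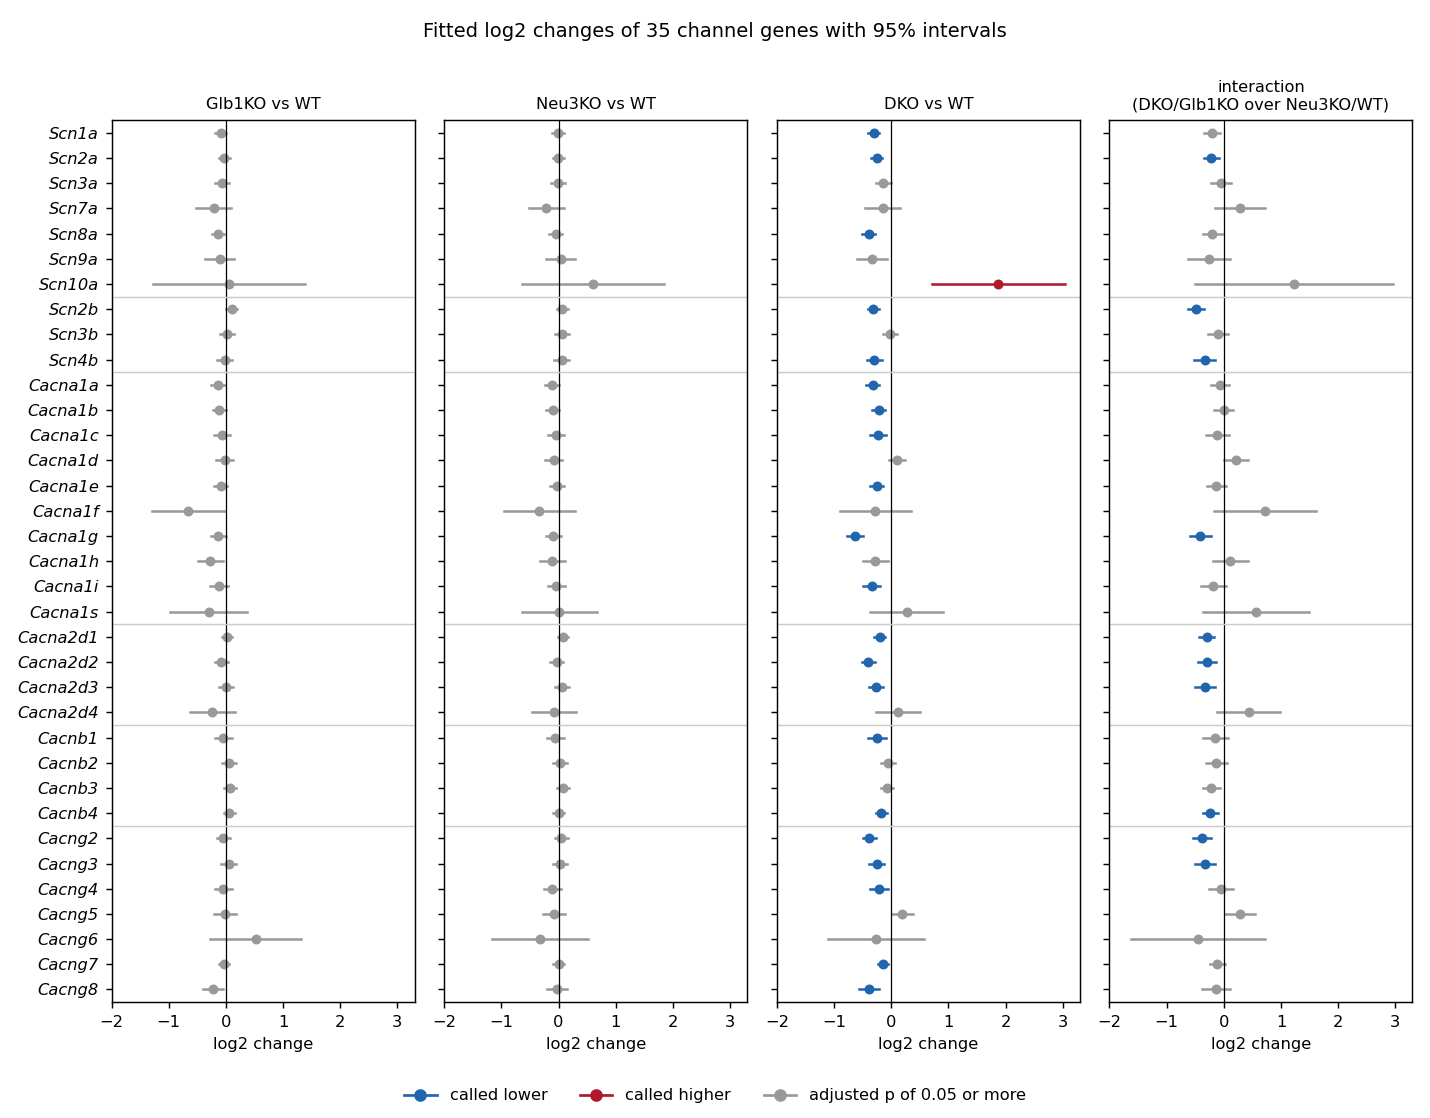
Fitted log2 changes (points) with 95% intervals (lines) for 35 of the tested genes in Glb1KO, Neu3KO and DKO against WT, and for the interaction, which is the change from Glb1KO to DKO minus the change from WT to Neu3KO. Blue marks called lower and red called higher at an adjusted p under 0.05. The single knockouts hold no coloured gene, DKO holds 21 blue and 1 red, and the interaction 10 blue.

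Loss of Neu3 on top of loss of Glb1 was compared directly, as DKO against Glb1KO. There 13 of the 37 genes were lower and Scn10a higher, where 15.7% of all tested genes passed, 7.29% as lower, 8.41% as higher and 11% as lower among genes of at least 10 CPM. At an unadjusted p under 0.05 there were 23 of the 37, where 27.8% of all tested genes were. The 13 were Scn1a, Scn2a, Scn8a, Scn2b, Scn4b, Cacna1a, Cacna1g, Cacna2d1, Cacna2d2, Cacna2d3, Cacnb4, Cacng2 and Cacng3, all of them also lower in DKO against WT. The Scn10a call (1.82, edgeR adjusted p = 0.0364) was lost under 10 of 28 alternatives, among them leaving out any 1 Glb1KO library or DKO replicate 3, 4 or 5, and within E it was at 0.45 (adjusted p = 0.869). The largest falls were those of Cacna1g (-0.50) and Scn2b (-0.41), followed by Cacng2 (-0.34) and Cacna2d2 (-0.32, edgeR adjusted p = 9.41e-05). In 11 of the 37 every DKO library lay below every Glb1KO library, where 5.25% of all tested genes did so, and in 0 above, where 6.78% did so. Against Neu3KO, 19 were lower and 1, Cacng5, higher, where 25.1% passed, 12.8% as lower, 12.3% as higher and 19.1% as lower among genes of at least 10 CPM. There 24 of the 37 had an unadjusted p under 0.05, where 34.6% of all tested genes had one. All DKO libraries lay below all Neu3KO libraries for 13 genes, where 7.2% of all genes did so, and above for 1, where 8.43% did so. The 3 comparisons share the DKO libraries, so their calls are not independent. The 13 genes lower against Glb1KO were lower in all 3, and Cacna1b, Cacna1c, Cacnb1 and Cacng4 were lower against WT only.

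The interaction asks whether the change from Glb1KO to DKO differed from the change from WT to Neu3KO. It passed for 10 of the 37 genes, all downward, where 6.84% of all tested genes passed, 2.88% downward and 4.5% downward among genes of at least 10 CPM. An unadjusted p under 0.05 was found for 16 of the 37, where 18.8% of all tested genes had one. Scn2b had the largest, at -0.48 (SE 0.07, edgeR adjusted p = 8.22e-06), followed by Cacna1g at -0.41 (SE 0.10, adjusted p = 0.00585) and Cacng2 at -0.39 (SE 0.08, adjusted p = 0.00185). Cacna2d3 (-0.33, 0.0176), Scn4b (-0.33, 0.0284), Cacng3 (-0.33, 0.0254), Cacna2d1 (-0.30, 0.00406), Cacna2d2 (-0.29, 0.023), Cacnb4 (-0.24, 0.0304) and Scn2a (-0.22, 0.0468) made up the rest. Thus all 3 abundant alpha2-delta genes and both of the lower sodium beta genes passed, while of the pores only Cacna1g and Scn2a did. Scn8a, at -0.20 (adjusted p = 0.16), and Scn1a, at -0.20 (0.102), did not pass, although their values lay close to that of Scn2a. Without WT replicate 1 the Scn8a interaction was called (-0.26, edgeR adjusted p = 0.018), and without Neu3KO replicate 3 that of Scn1a was. A difference between these sodium pores is therefore not shown. Scn2a lost its call without WT replicate 5 (-0.19, adjusted p = 0.114) and under 14 other single omissions, Scn4b under 9, Cacnb4 under 6, Cacng3 under 4 and Cacna2d2 under 1, DKO replicate 3 (-0.26, 0.0627).

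Identifier letter moved with genotype, since no WT library carried W and only 2 DKO libraries carried E. The genes followed here were picked by their calls in a fit that held these same libraries. Their signs within a letter were thus largely fixed in advance, and their calls were favoured, so neither is an independent check. The shares beside them are of genes not picked in this way. Within the libraries with E alone, all 21 lower genes of DKO against WT were still below 0 and 13 were called: Scn1a, Scn2a, Scn8a, Scn2b, Scn4b, Cacna1a, Cacna1c, Cacna1g, Cacna1i, Cacna2d2, Cacng2, Cacng7 and Cacng8. Of all 39 channel genes tested within E, 13 were called, beside 2583 of all 20091 genes, in either direction. With the letter as a term, 18 of the 21 were called. The calls lost were those of Cacna1b (-0.175, edgeR adjusted p = 0.0937), Cacnb1 (-0.155, 0.192) and Cacng4 (-0.124, 0.346), which were not called within E either. Of all 37 channel genes 19 were called with that term, beside 3363 of all 18336 genes. Against Glb1KO within E, with 2 libraries a group, 13 of 13 were below 0 and 4 were called (Scn2b, Scn4b, Cacna1g and Cacng2). Of all 39 channel genes 5 were called there, beside 901 of all 20091 genes. Against Neu3KO within W, 19 of 19 were below 0 and 14 were called. Of all 37 channel genes 16 were called there, beside 3724 of all 17927 genes. For the interaction within E, 10 of 10 were below 0 and none was called, beside 183 of all 20091 genes, and with the letter as a term 7 were called, beside 1111 of all 18336. No fit within L was possible, since only Glb1KO held it.

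The genes that work beside the channels were taken from lists of partners. Of 14 genes of sodium channel partners and the axon initial segment, 11 were lower and 1 higher in DKO than in WT, where 15.1% of all tested genes were lower and 14% higher, and 22.3% of those of at least 10 CPM were lower. Ank3, which encodes ankyrin-G, the scaffold that holds sodium channels at the initial segment, averaged 685 CPM in WT and 474 in DKO, a log2 change of -0.53 (SE 0.06, edgeR adjusted p = 3.86e-09). Fgf11 (-0.57, 6.18e-07) and Fgf13 (-0.31, 0.000113), intracellular FGF-like proteins that bind sodium channels, and Cntnap1 (-0.34, 8.49e-06), a protein beside the node, were lower as well. The most abundant members, Sptan1 (-0.20, 0.00403) and Ank2 (-0.17, 0.025), fell less. Against Glb1KO, 6 of the 14 were lower, where 7.29% of all tested genes were, and 3 of 14 were already lower in Glb1KO than in WT, where 2.21% were.

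Of 20 calcium channel partners, 9 were lower in DKO than in WT and none higher, beside the same 15.1% and 22.3% of genes. Rims1, which tethers calcium channels at the presynaptic active zone, averaged 264 CPM in WT, 220.3 in Glb1KO, 270.6 in Neu3KO and 161 in DKO, a DKO-to-WT log2 change of -0.72 (SE 0.06, edgeR adjusted p = 2.73e-11). Rimbp2, which links Rims proteins to the channels, was at -0.49 (1.84e-06). Stac, an adaptor of L-type channels, was at -0.88 (0.000252) and Stac2 at -0.26 (0.000457). The kinase gene Camk2a, among the most abundant of the list, was at -0.001 (0.992). Against Glb1KO, 10 of the 20 were lower, where 7.29% of all tested genes were, and 1 of the 20 was lower in Glb1KO than in WT, where 2.21% were.

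Of 9 AMPA receptor genes, core and auxiliary, 5 were lower in DKO than in WT, with no higher one, where 15.1% of all tested genes and 22.3% of those of at least 10 CPM were lower. Gria4 was at -0.35 (edgeR adjusted p = 3.48e-05), Dlg4, which encodes the scaffold PSD-95, at -0.24 (6.42e-05), Cnih2 at -0.33 (8.13e-05) and Gsg1l at -0.30 (0.00104), while Gria2, the most abundant receptor subunit gene, was at -0.05 (0.441). In the list of the sodium leak channel and endolysosomal cation channels, Unc80 (-0.30, 1.04e-05), Nalcn (-0.32, 6.19e-05), Fam155a (-0.19, 0.005) and Unc79 (-0.26, 0.0119), which together form the leak channel, were lower. Tpcn1 (0.25, 0.00626) and Tpcn2 (0.55, 0.00884), channels of endosomes and lysosomes, were higher.

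Markers of cell types were measured in the same libraries, where 15.1% of all tested genes and 22.3% of those of at least 10 CPM were lower in DKO than in WT. Of 6 Purkinje cell markers, 5 were lower in DKO than in WT, with a median log2 change of -0.88, and their summed CPM was 804 to 1263 in DKO against 1657 to 1833 in WT, 1568 to 1813 in Glb1KO and 1474 to 1911 in Neu3KO. Itpr1, the most abundant, averaged 1241 CPM in WT and 743 in DKO. Of 8 pan-neuronal markers, 2 were lower, with a median of -0.11 and sums of 5447 to 5971 in DKO against 6038 to 6388 in WT. Against Glb1KO, 7 of those 8 were lower, with a median of -0.20, where 7.29% of all tested genes and 11% of those of at least 10 CPM were lower. The same markers summed to 6485 to 6666 CPM in Glb1KO, above every WT library, and 2 of the 8 were higher in Glb1KO than in WT, where 1.75% of all tested genes were.

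Of 5 thalamic markers, 3 were lower against WT (median -0.28) and 5 against Glb1KO (median -0.50), where 7.29% of all tested genes were lower. The striatal, inhibitory and granule cell lists did not fall in this way in DKO against WT. Of 5 striatal markers, 0 were lower and 1 higher (median 0.01). Of 6 inhibitory neuron markers, 2 were lower and 1 higher (median -0.02). Of 5 cerebellar granule cell markers, 1 was lower and 0 higher (median -0.15). Of all tested genes, 15.1% were lower and 14% higher. Of 6 excitatory forebrain neuron markers, 4 were lower against WT, with a median of -0.27, 3 against Glb1KO and 4 against Neu3KO, and their sums overlapped (3164 to 3707 CPM in DKO, 3444 to 3757 in WT). Against Neu3KO, 12.8% of all tested genes and 19.1% of those of at least 10 CPM were lower. In the interaction, 4 of 6 Purkinje, 4 of 5 thalamic, 5 of 8 pan-neuronal and 1 of 6 excitatory markers were lower, where 2.88% of all tested genes and 4.5% of those of at least 10 CPM were. Of the striatal, inhibitory and granule cell markers, 0 passed there. Summed astrocyte markers were 7891 to 8953 CPM in DKO against 3961 to 4037 in WT, and summed microglial markers 574 to 711 against 195 to 230.3. Of 6 astrocyte markers 5 were higher in DKO than in WT, and of 7 microglial markers 6, where 14% of all tested genes were. The astrocyte markers varied widely, with a median log2 change of 0.60 and a range of -0.01 to 4.36. The microglial median was 1.83. Oligodendrocyte markers were lower than in WT in Glb1KO and in DKO alike, 8 of 8 each. In Glb1KO against WT, 2.21% of all tested genes and 3.29% of those of at least 10 CPM were lower. Markers of hindbrain and spinal neurons summed to 63.0 to 101 CPM in WT, 14.0 to 31.8 in Glb1KO, 13.9 to 74.2 in Neu3KO and 20.6 to 41.6 in DKO. Of 6 such markers tested against WT, 4 were lower in DKO (median -1.86) and 3 in Glb1KO (median -2.53). In Neu3KO 0 of the 6 were called (median -1.03). No list gave a marker at 0 throughout a genotype except the pituitary list, in which Cga was at 0 in DKO. The part of these markers in the channel results was not tested.

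The authors' deposited table compares DKO with WT and lists all 40 genes. In the authors' deposited table, a total of 24 of them passed at an adjusted p under 0.05, 23 lower and 1 higher, and these include all 22 called here. The remaining 2 were Scn9a (log2 change -0.33, adjusted p = 0.0337 in the authors' deposited table) and Cacna1h (-0.27, 0.0271 in the authors' deposited table), which lay just outside the threshold here, at adjusted p = 0.0536 and 0.0685 with edgeR.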

How the data were processed

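RNA-seq counts per gene from 20 mouse brain libraries, 5 in each of 4 genotypes, were deposited as a table of raw counts. The submitters' processing notes name mm10, featureCounts 1.5.0-p3, HISAT2 2.0.5, fastp and DESeq2 1.20.0, with no role or order, and no strand setting is given in the sources used here. The authors' deposited FPKM values equal counts over gene length and library total times a single factor per library (0.9543 to 1.032). They were used only to order levels between genes, while CPM was computed here from counts and TMM factors. Log2 fold changes and adjusted p-values in the authors' deposited table, which compares DKO with WT, were set beside the results and entered no test.

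Counts were tested with edgeR 4.0.16 in R 4.3.3 (its low-count filter, TMM scaling, quasi-likelihood test) in 1 fit over all 20 libraries, with Benjamini-Hochberg adjustment over 18336 genes and a threshold of 0.05. The script was tested on simulated data. Alternatives were other scaling factors, filters, DESeq2 1.42.0, a fit of only those groups that are compared, a term for the identifier letter or the replicate number, libraries of 1 letter, and each library left out. The fit within W was chosen after seeing the data.

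Genes were described in full by a rule: the 12 smallest adjusted p-values in any pairwise comparison, called changes of at least 0.5 on the log2 scale, interaction calls, and the highest FPKM per subunit group. From partner and marker lists, the called genes with the smallest adjusted p and the most abundant were named. Stac2, Cacng5, Cacng8, Scn9a and the other genes given beside them were named after their values were seen. Members and lists were chosen with earlier results of these data known. Marker lists covered neurons (pan-neuronal, excitatory, inhibitory, striatal, thalamic, Purkinje, cerebellar granule, hindbrain, peripheral sensory), glia, vessels, choroid plexus, pituitary and muscle. Depth ran from 15162311 to 25145806 counts per library. Intervals on fitted changes are 95%. Some genes of these lists are counted in the totals and are not reported here by name.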

Additional observations from a re-analysis of the deposited data

Results flagged for a closer look

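In Scn10a, Neu3KO replicate 1 stood far from its group, at 1.92 CPM, with the nearest Neu3KO library at 0.354. That library also held the highest Scn11a count. Leaving it out moved the DKO-to-Neu3KO log2 change of Scn10a from 1.28 (edgeR adjusted p = 0.0981) to 2.71 (adjusted p = 0.000272). It was the only Neu3KO library with E, so this refit also changed the mix of identifier letters. Within E, with that 1 Neu3KO library, the Scn10a change was -1.86, and within W it was 3.24 (edgeR adjusted p = 2.05e-05). The sign of the change thus differed between the letters. In Cacna2d2, WT replicate 1 stood far from its group, at 112 CPM, with the nearest WT library at 96.1. These were 2 of 68 sets of 1 gene in 1 genotype, and chance marks about 1 in 20.

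By the interaction term, the effect of Neu3 loss was called as differing with the Glb1 genotype for 10 of the 37 tested genes. All 10 were downward, where 2.88% of all tested genes were. Of 200 refits of these calls with 1 library left out, 35 lost the call, most often for Scn2a. With the identifier letter, which moved with genotype, as a term, 7 of the 10 were called. The interaction log2 values were -0.48 for Scn2b, -0.41 for Cacna1g, -0.39 for Cacng2, -0.33 for Cacna2d3, -0.33 for Scn4b and -0.33 for Cacng3. They were -0.30 for Cacna2d1, -0.29 for Cacna2d2, -0.24 for Cacnb4 and -0.22 for Scn2a.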

How the results depend on the processing

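No call of a channel gene reversed under any alternative run. Of 440 refits of the DKO-to-WT calls with 1 library left out, 16 lost the call, as did 14 of 280 against Glb1KO, 27 of 400 against Neu3KO and 35 of 200 for the interaction. The number of genes called then ran from 18 to 24 for DKO against WT, 0 to 1 for Glb1KO against WT, 0 to 0 for Neu3KO against WT, 12 to 16 for DKO against Glb1KO, 17 to 22 for DKO against Neu3KO and 6 to 11 for the interaction. The 6 came without Neu3KO replicate 5, and the 1 in Glb1KO without Glb1KO replicate 4 or Neu3KO replicate 2.

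Within identifiers starting with E, 13 genes were called in DKO against WT, 5 against Glb1KO, 3 against Neu3KO (with 1 Neu3KO library, assumed to vary like the others) and 0 for the interaction, where fewer libraries were compared. With the letter as a term, 9 were called against Glb1KO. In Glb1KO against WT, 1 gene was called with upper-quartile factors, 1 with library totals alone, 1 with the compared groups only and 2 with no filter. The cause was not tested. DESeq2 called 23 for DKO against WT, 14 against Glb1KO and 20 against Neu3KO.

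Library totals alone moved the share of lower genes among all calls from 51.9% to 39.9% for DKO against WT, 46.4% to 36% against Glb1KO, 50.9% to 37% against Neu3KO and 42.1% to 29.4% for the interaction. The channel calls were then 18 lower and 1 higher against WT, 12 and 1 against Glb1KO, 14 and 2 against Neu3KO, and 7 lower for the interaction.

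The replicate numbers did not pair the libraries: of 30 same-number pairs, 0 correlated above 0.1 (range -0.129 to 0.0646), and 0 of 20 libraries correlated best with their own number. The replicate block gave 24, 15, 22 and 8 calls for DKO against WT, Glb1KO and Neu3KO and for the interaction, and 0 for each single knockout. Scn4a, Scn11a and Cacng1 are limited by depth.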
